A study of Mus musculus with 3 samples.

Results

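Nlgn1, Nlgn2 and Nlgn3 (neuroligins), Nrxn2 and Nrxn3 (neurexins) and Lrrtm1, Lrrtm2, Lrrtm3 and Lrrtm4 (leucine-rich repeat transmembrane proteins) are genes of the neurexin adhesion system at synapses. They were chosen by gene family and not by a rule on their measured values, though earlier results of these data were known at that point. They are 9 of the 30559 genes counted. Single-nucleus RNA was measured in differentiated neurosphere cultures grown from the subventricular zone (SVZ) of newborn mice, to ask what the histone acetyltransferases CBP and p300 each do as neural progenitors differentiate. There was 1 library each of control, CBPf/f and p300f/f cultures, each a pool of about 15 cultures at 15 days in vitro, with 16000 nuclei loaded. In the methods of the study, mice were on a C57BL/6 background, loxP sites flank an exon of the targeted gene, Cre fused to mCherry came by lentivirus, controls received a lentivirus with a red fluorescent protein, and nuclei were sorted before loading. The labels instead name tamoxifen as the treatment of all 3 samples, and which floxed line the control cultures carried is not given in the sources used here. The ablated libraries are called CBP-ablated and p300-ablated below. With 1 library per condition there was no replicate and no test between conditions, and every interval in this text covers counting error only. All 9 genes had enough counts in every pair of libraries (at least 100 UMIs, unique molecular identifiers that mark original RNA molecules) to pass the minimum for a ratio.

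Neurexins are presynaptic adhesion proteins that reach across the synaptic cleft, and neuroligins and LRRTMs are postsynaptic partners that bind them in competition. Neuroligin-1 is known mainly from excitatory synapses, neuroligin-2 from inhibitory ones and neuroligin-3 from both, while LRRTMs act at excitatory synapses, and LRRTM3 and LRRTM4 also bind heparan sulphate proteoglycans. The proteins are best known in neurons, but astrocytes and oligodendrocyte precursor cells (OPC) express several of them, and OPCs receive synaptic contacts from neurons.

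Promoter windows (RefSeq, GRCm38.p6; the bases before each annotated start) were on hand for 6 of the 9 genes, 10 windows in all, and Nlgn3, Nrxn2 and Lrrtm2 have none here. The windows of Nrxn3, which differed most within classes of nuclei among genes with 100 UMIs in the pair, and the first window of Lrrtm4, which differed in opposite directions between classes, are shown 5′ to 3′ on the strand of the gene. Nrxn3 has 3 starts in this table, all inside the gene span given below, and the 5′ end of that span at 88722876 has no window. The UMI counts of the gene add up transcripts from all of its starts.
Nrxn3, chr12:88794254-88794503, plus strand: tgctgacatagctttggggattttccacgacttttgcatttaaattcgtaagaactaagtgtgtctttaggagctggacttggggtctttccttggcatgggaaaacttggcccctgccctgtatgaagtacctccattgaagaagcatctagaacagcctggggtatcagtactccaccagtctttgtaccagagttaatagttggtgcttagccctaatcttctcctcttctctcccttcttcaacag
Nrxn3, chr12:88953140-88953389, plus strand: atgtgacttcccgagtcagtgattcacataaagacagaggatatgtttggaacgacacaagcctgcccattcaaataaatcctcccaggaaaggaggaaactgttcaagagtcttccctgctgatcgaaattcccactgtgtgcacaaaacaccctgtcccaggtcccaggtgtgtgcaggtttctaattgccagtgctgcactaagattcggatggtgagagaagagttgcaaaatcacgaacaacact
Nrxn3, chr12:89812233-89812482, plus strand: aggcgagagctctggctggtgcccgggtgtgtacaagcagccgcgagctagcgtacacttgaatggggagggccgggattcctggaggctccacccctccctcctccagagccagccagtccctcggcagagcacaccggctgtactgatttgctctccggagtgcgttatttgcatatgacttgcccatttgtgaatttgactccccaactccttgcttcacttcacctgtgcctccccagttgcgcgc
Lrrtm4, chr6:80018627-80018876, plus strand: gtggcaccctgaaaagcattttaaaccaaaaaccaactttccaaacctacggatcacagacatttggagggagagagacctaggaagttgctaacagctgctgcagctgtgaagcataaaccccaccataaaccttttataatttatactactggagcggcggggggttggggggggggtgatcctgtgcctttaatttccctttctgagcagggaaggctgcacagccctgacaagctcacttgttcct
The 250 bases before each start were searched on both strands for the cAMP response element TGACGTCA, the site of CREB, a factor that binds CBP and p300, and for its core TGACG, which lies within it. The core was in 0 of the 10 windows and so nothing is set in capitals, while 17.8% of 32851 windows of all genes held the core and 1.55% held the whole element. These letters are not in these windows, which says nothing about binding of the factor elsewhere.

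The genes are spread over the genome and differ widely in length, which matters because nuclear RNA was counted over exons and introns. Nrxn3 (ENSMUSG00000066392, chromosome 12 from 88722876 to 90334935) spans 1612 kb, Nlgn1 (ENSMUSG00000063887, chromosome 3 from 25426215 to 26332460) 906 kb and Lrrtm4 (ENSMUSG00000052581, chromosome 6 from 80018877 to 80810143) 791 kb. Lrrtm3 (ENSMUSG00000042846, chromosome 10 from 63928472 to 64090277) spans 162 kb and Nrxn2 (ENSMUSG00000033768, chromosome 19 from 6418731 to 6544169) 125 kb. Nlgn3 (ENSMUSG00000031302, chromosome X from 101299168 to 101325963) spans 26.8 kb, Nlgn2 (ENSMUSG00000051790, chromosome 11 from 69823122 to 69837784) 14.7 kb, Lrrtm1 (ENSMUSG00000060780, chromosome 6 from 77242689 to 77257791) 15.1 kb and Lrrtm2 (ENSMUSG00000071862, chromosome 18 from 35209003 to 35215024) 6.02 kb. Lrrtm1, Lrrtm2 and Lrrtm3 lie within the α-catenin genes Ctnna2, Ctnna1 and Ctnna3, each on the opposite strand, and Nrxn2 overlaps the antisense gene Gm14964 (1538 UMIs over all libraries). A read counted on the wrong strand would go to the other gene.

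The control library held 4884 nuclei and 16312170 UMIs, the CBP-ablated library 3017 nuclei and 12748336 UMIs, and the p300-ablated library 4648 nuclei and 18876682 UMIs, with medians of 3219, 4016 and 3902.5 UMIs per nucleus. The libraries shared 1 to 7 cell barcodes in pairs. Crebbp and Ep300, which encode CBP and p300, were not lower than control in the library where each was targeted. Their counts include RNA from outside the floxed exon and were not used to check the labels. How complete the ablation was in these nuclei was not tested. In control, CBP-ablated and p300-ablated libraries Crebbp had 335, 369.5 and 365 CPM (counts per 1000000 UMIs of the library) and Ep300 114, 136 and 115 CPM. Nuclei were clustered again here, because no annotation of nuclei was used, and classes were named from marker lists. The classes were neural progenitor and OPC (NPC/OPC)-like, radial glia and progenitor (RGC/PSC)-like, glial progenitor-like, astrocyte-like, committed oligodendrocyte precursor-like, oligodendrocyte-like, proliferating-like, neuron-like, microglia-like and a class called cluster-5-like after cluster 5 of the study, which the study named immature neurons and which is marked by the potassium channel gene Kcnj6. Of the 7 markers of the cluster-5-like class, 6 were past 2-fold there, with Kcnj6 the highest at 14.9-fold. Grm7 went the other way, at 72.4 CPM in the class and 561 elsewhere. The NPC/OPC-like cluster also held 5 of the 7 at the level required for a name. Clusters 7 and 12 stayed unnamed. All 1279 astrocyte-like nuclei came from the control library, so that this class and the control library cannot be told apart. The share of NPC/OPC-like nuclei was 21.2% in the control library, 12.8% with CBP ablated and 37.6% with p300 ablated, and that of oligodendrocyte-like nuclei 3.28%, 16.1% and 4.15%. In sums over a library, fewer nuclei of a class and less RNA per nucleus cannot be told apart.

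Levels are given as CPM, the UMIs of a gene per 1000000 UMIs of the same nuclei. Nlgn1 had 3943 CPM in control (95% interval 3912 to 3973), 3157 with CBP ablated (3126 to 3188) and 4551 with p300 ablated (4520 to 4581). Nrxn3 had 2255 CPM in control (2232 to 2278), 1493 with CBP ablated (1472 to 1514) and 2756 with p300 ablated (2732 to 2779). Both genes were lowest in the CBP-ablated and highest in the p300-ablated library, and the intervals did not overlap.

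Nrxn2 had 256 CPM in control (248 to 264), 151 with CBP ablated (145 to 158) and 366 with p300 ablated (358 to 375). Lrrtm3 had 352 CPM in control (343 to 361), 227 with CBP ablated (219 to 236) and 456 with p300 ablated (447 to 466). Lrrtm4 had 813 CPM in control (799.5 to 827), 692 with CBP ablated (677 to 706) and 1165 with p300 ablated (1150 to 1181). These 3 genes kept the order seen for Nlgn1 and Nrxn3, again without overlap.

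Nlgn2 had 43.8 CPM in control (40.7 to 47.2), 51.1 with CBP ablated (47.3 to 55.2) and 56.2 with p300 ablated (52.8 to 59.6). Nlgn3 had 49.7 CPM in control (46.3 to 53.2), 53.2 with CBP ablated (49.3 to 57.3) and 64.9 with p300 ablated (61.3 to 68.6). Both were lowest in control, though the control and CBP-ablated intervals of Nlgn3 overlapped. Lrrtm1 had 10.5 CPM in control (8.97 to 12.2), 9.49 with CBP ablated (7.88 to 11.3) and 14.5 with p300 ablated (12.8 to 16.3). Lrrtm2 had 6.31 CPM in control (5.15 to 7.66), 6.20 with CBP ablated (4.91 to 7.72) and 6.73 with p300 ablated (5.61 to 8.005), and its intervals all overlapped.

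**Figure D1:**
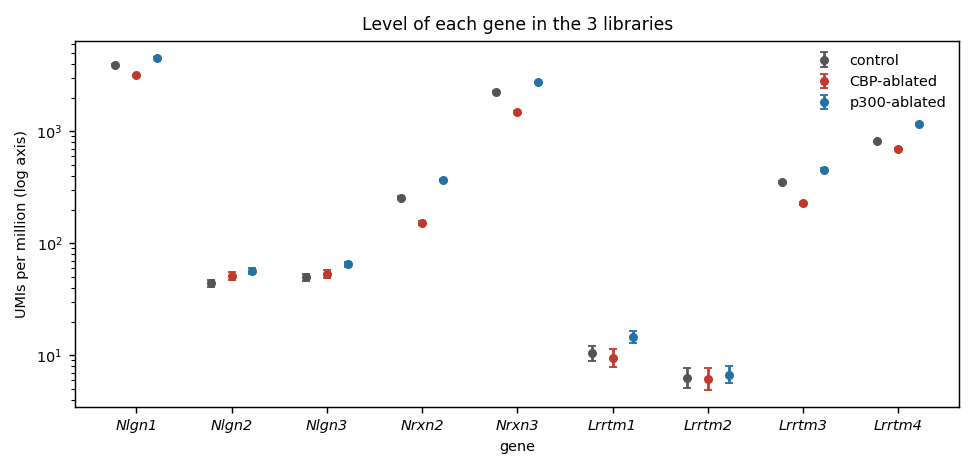
Level of each of the 9 genes in the 3 libraries, as CPM on a log axis, with points for libraries and bars for exact Poisson 95% intervals (counting error only). Nlgn1, Nrxn2, Nrxn3, Lrrtm3 and Lrrtm4 share an order, with the CBP-ablated library lowest and the p300-ablated library highest. Levels of different genes are not comparable here, since they may follow gene length.

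UMIs from introns may rise with gene length, so levels are also given per kilobase. Exon and intron UMIs were not counted apart and the scaling was not tested, so the order below does not rank expression. Per kilobase of gene, the control level of Nlgn1 was 4.35 CPM, that of Nlgn2 2.99, Lrrtm3 2.18, Nrxn2 2.04, Nlgn3 1.85, Nrxn3 1.40, Lrrtm2 1.05, Lrrtm4 1.03 and Lrrtm1 0.694.

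None of the 9 genes was 2-fold higher or lower than control in either ablated library. Among all genes with at least 100 UMIs in the pair, 2.89% were 2-fold higher and 3.99% 2-fold lower in the CBP-ablated library, and 0.694% were higher and 2.12% lower in the p300-ablated library. In the CBP-ablated library the log2 ratio to control was −0.76 for Nrxn2 (−0.84 to −0.68), −0.63 for Lrrtm3 (−0.70 to −0.57), −0.60 for Nrxn3 (−0.62 to −0.57), −0.32 for Nlgn1 (−0.34 to −0.30) and −0.23 for Lrrtm4 (−0.27 to −0.19). It was 0.22 for Nlgn2 (0.07 to 0.38), while Nlgn3 at 0.10 (−0.05 to 0.25), Lrrtm1 at −0.14 (−0.49 to 0.20) and Lrrtm2 at −0.03 (−0.47 to 0.41) had intervals that held 0. The median of the 9 was −0.23, with 7 below and 2 above 0, beside a median of 0.06 over 11883 genes, of which 56.6% were above 0. Without the astrocyte-like nuclei the ratios were −0.94 for Lrrtm3, −0.88 for Nrxn2, −0.76 for Nrxn3, −0.60 for Lrrtm4, −0.44 for Nlgn1, −0.11 for Nlgn3 and −0.03 for Nlgn2, with a median of −0.45 and 9 of 9 below 0. This takes nuclei from the control library only, and the share and median of all genes without them were not computed.

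In the p300-ablated library all 9 ratios were above 0, where 45.2% of the 12247 genes compared were above 0. The log2 ratio was 0.52 for Lrrtm4 (0.49 to 0.55) and for Nrxn2 (0.46 to 0.57), 0.47 for Lrrtm1 (0.19 to 0.75), 0.39 for Nlgn3 (0.26 to 0.52), 0.37 for Lrrtm3 (0.33 to 0.42) and 0.36 for Nlgn2 (0.22 to 0.50). It was 0.29 for Nrxn3 (0.27 to 0.31), 0.21 for Nlgn1 (0.19 to 0.22) and 0.09 for Lrrtm2 (−0.30 to 0.48). The median of the 9 was 0.37, beside −0.03 over all genes. Without the astrocyte-like nuclei it was 0.13, with Nrxn2 at 0.40, Lrrtm4 at 0.15, Nrxn3 at 0.13, Nlgn1 at 0.09, Lrrtm3 at 0.07 and Lrrtm2 at −0.22. Both comparisons share the control library, so the values are set side by side and not combined.

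Between the ablated libraries, which do not share the control, Nrxn2 was 2.42-fold higher in the p300-ablated library (log2 ratio 1.28) and Lrrtm3 2.01-fold higher (1.01). Of all genes compared, 2.57% were 2-fold higher and 3% 2-fold lower there. Nrxn3 followed at 0.88 (0.86 to 0.91), Lrrtm4 at 0.75 (0.72 to 0.79), Lrrtm1 at 0.61 (0.30 to 0.93) and Nlgn1 at 0.53 (0.51 to 0.54), and Nlgn3, Nlgn2 and Lrrtm2 lay between 0.12 and 0.29.

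How far the changed mix of clusters could carry these ratios was computed by giving every cluster its control level and the share of UMIs that it has in the ablated library. In the p300-ablated library, the mix alone gave log2 ratios close to those observed for Nlgn1 (0.21 and 0.21 observed), Lrrtm3 (0.41 and 0.37), Lrrtm4 (0.48 and 0.52) and Nrxn3 (0.23 and 0.29). Nrxn2 rose further, at 0.52 against 0.22 from the mix. In the CBP-ablated library, the mix alone gave −0.28 for Nlgn1 (−0.32 observed) and −0.17 for Lrrtm4 (−0.23 observed). It gave −0.05 for Nrxn3, −0.16 for Lrrtm3 and −0.33 for Nrxn2, and the observed ratios lay below these, with differences of −0.55, −0.47 and −0.43 in the same order. Lrrtm2, with few UMIs, was at 0.49 from the mix and −0.03 observed, a difference of −0.51. With finer clusters the differences were −0.48, −0.41 and −0.41.

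**Figure D2:**
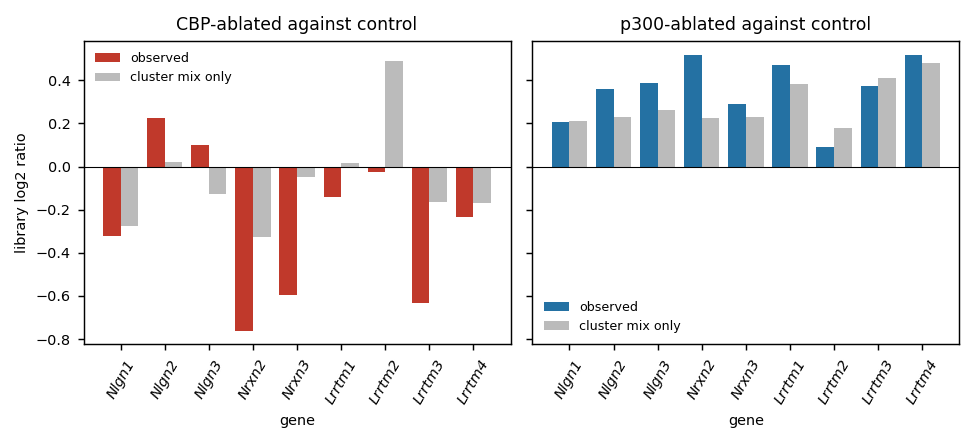
Library log2 ratio to control of each gene (coloured bars) beside the ratio that the mix of clusters alone would give (grey bars), for the CBP-ablated library (left) and the p300-ablated library (right). Grey and coloured bars are alike for most genes on the right, while Nrxn2, Nrxn3, Lrrtm3 and Lrrtm2 fall well below the grey bars on the left.

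Across classes of nuclei the genes fell into a few patterns. Nlgn1 was highest in NPC/OPC-like nuclei at 6561 CPM over all libraries, then in cluster-5-like nuclei at 5944 and proliferating-like nuclei at 5782, whose intervals overlapped. It was at 3803 CPM in committed oligodendrocyte precursor-like, 2869 in astrocyte-like, 2813 in neuron-like and 1395 in oligodendrocyte-like nuclei, and the astrocyte-like and neuron-like levels did not differ beyond their intervals. Nlgn2 was highest in committed oligodendrocyte precursor-like nuclei at 98.2 CPM, above NPC/OPC-like nuclei at 79.6, and was at 9.84 in oligodendrocyte-like nuclei. Nlgn3 was at 91.8 CPM in NPC/OPC-like nuclei, and its next 3 classes, proliferating-like, cluster-5-like and committed precursor-like, had intervals that each overlapped that of the class before.

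Nrxn3 stood apart, with 14958.5 CPM in neuron-like nuclei (14743.6 to 15176), 4.47 times its level in the next class, cluster-5-like nuclei at 3346. By library the fold over the next class was 4.01 in control and 3.90 with p300 ablated, both over cluster-5-like nuclei, and 7.30 with CBP ablated, over glial progenitor-like nuclei at 1946 CPM. NPC/OPC-like nuclei were at 2957 CPM, glial progenitor-like at 2407, astrocyte-like at 1415, committed oligodendrocyte precursor-like at 454 and oligodendrocyte-like at 261. Neuron-like nuclei held 17.1% of all Nrxn3 UMIs and NPC/OPC-like nuclei 31.7%. Nrxn2 was instead highest in NPC/OPC-like nuclei at 518 CPM, with cluster-5-like at 409.6, proliferating-like at 340.3 and neuron-like at 261.

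Lrrtm3 and Lrrtm4 were highest in NPC/OPC-like nuclei, at 789 and 2022 CPM, which held 52.9% and 53.0% of their UMIs. They parted in other classes. Lrrtm4 was at 1313 CPM in neuron-like nuclei, where Lrrtm3 was at 142. Lrrtm4 made up 84.3% of LRRTM UMIs there in control (80.1 to 87.9), 93.0% with CBP ablated (91.2 to 94.4) and 82.5% with p300 ablated (78.5 to 86.1), against 70.9% over all nuclei. In astrocyte-like nuclei, all from control, Lrrtm3 was at 90.0 CPM (80.9 to 99.9) and Lrrtm4 at 60.2 (52.7 to 68.4), so that Lrrtm3 made up 58.3% of LRRTM UMIs (54.3 to 62.3), against 36.7% (24.6 to 50.1) in control microglia-like nuclei. Lrrtm1 was highest in NPC/OPC-like nuclei at 24.0 CPM, with proliferating-like at 19.5 and cluster-5-like at 16.3 overlapping. Lrrtm2, with 309 UMIs in all, was at 13.4 CPM in committed oligodendrocyte precursor-like nuclei and at 14.7 in microglia-like nuclei from 8 UMIs, so that its order was not resolved.

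Free RNA in the droplets sets a floor for such levels, and microglia, which are of another lineage, gave a measure of it. Microglia-like nuclei had 1052 CPM of Nlgn1, 394 of Nrxn3, 197 of Lrrtm4, 112 of Lrrtm3 and 79.2 of Nrxn2. After thinning each nucleus to 1500 UMIs, 52.1% of 119 microglia-like nuclei had a Nlgn1 UMI and 31.9% a Nrxn3 UMI, against 62.7% and 35.7% of 314 without thinning. The median depth was 1145 UMIs in control microglia-like and 3265 in control NPC/OPC-like nuclei. Microglia-like nuclei were the shallowest class in each library, and whether their CPM is a fitting floor for deeper nuclei was not tested. Set against the microglia-like level of the same library, Lrrtm3 and Lrrtm4 in RGC/PSC-like and glial progenitor-like nuclei and Nrxn3 in oligodendrocyte-like nuclei lay below it in all 3 libraries, as did Lrrtm4 in astrocyte-like nuclei of the control, and these were not set apart from background by CPM. Without thinning, 44.4% of oligodendrocyte-like nuclei had a Nrxn3 UMI in control, against 29.2% of microglia-like nuclei. The shares were 46.9% against 32.9% with CBP ablated and 67.4% against 62.3% with p300 ablated, and the oligodendrocyte-like nuclei were deeper. Lrrtm3 in astrocyte-like nuclei overlapped the control microglia-like level of 75.1 CPM (47.1 to 114). Nlgn1, Nlgn2 and Nlgn3 in oligodendrocyte-like nuclei and Nrxn2 in RGC/PSC-like nuclei lay below or overlapped the microglia-like level in at least 2 of the libraries. So did Nlgn2 and Nlgn3 in RGC/PSC-like, glial progenitor-like and neuron-like nuclei, and Nlgn2 in proliferating-like nuclei. The same held for Nrxn2 in glial progenitor-like and oligodendrocyte-like nuclei, and for Nrxn3 in committed precursor-like nuclei. It also held for Lrrtm3 in neuron-like and oligodendrocyte-like nuclei, and for Lrrtm1 and Lrrtm2 in every other class found in all 3 libraries. Nlgn1 in microglia-like nuclei was at 19.9% of the library level in control (17.4 to 22.7), 45.4% with CBP ablated (38.6 to 53.1) and 28.9% with p300 ablated (24.8 to 33.3). Microglia-like levels thus differed between libraries, and their part in the ratios of other classes was examined only by subtracting a fixed share of free RNA.

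**Figure D3:**
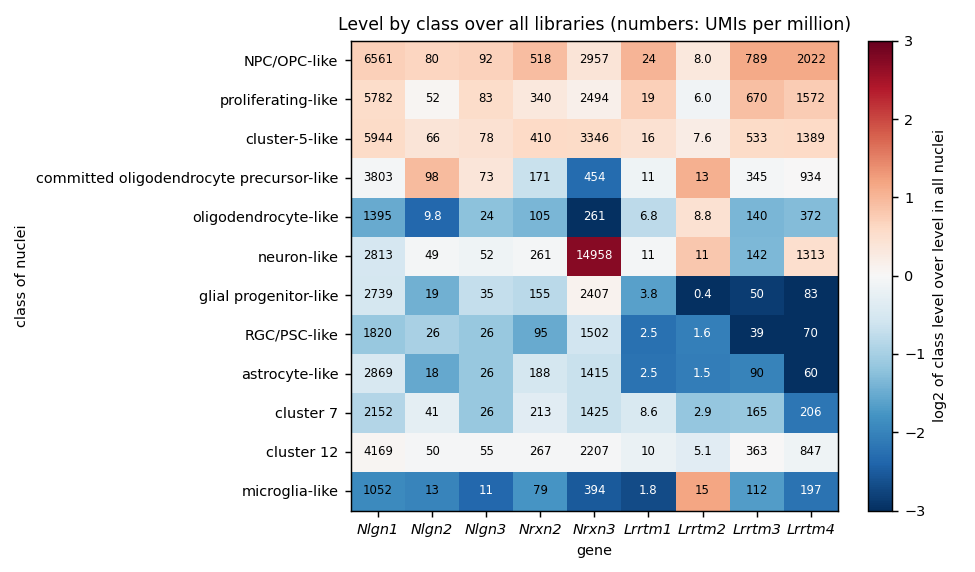
Level of each gene (columns) in each class of nuclei (rows) over the 3 libraries together, with CPM as numbers and colour for the log2 of the class level over the level in all nuclei, which ends at 3 in each direction. Nrxn3 stands out in neuron-like nuclei at 14958.5, while Lrrtm3 and Lrrtm4 are highest in NPC/OPC-like nuclei at 789 and 2022.

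Within classes, the 3 largest differences in the CBP-ablated library, among genes with 100 UMIs in the pair, were those of Nrxn3. In cluster-5-like nuclei it was at 3743 CPM in control, 996.5 with CBP ablated and 4176 with p300 ablated. The log2 ratio was −1.91 with CBP ablated (−2.01 to −1.81) and 0.16 with p300 ablated (0.11 to 0.21). In proliferating-like nuclei the levels were 2990.0, 1089 and 2963.5 CPM, a log2 ratio of −1.46 with CBP ablated (−1.60 to −1.32). In committed oligodendrocyte precursor-like nuclei they were 607, 247 and 741 CPM, a ratio of −1.30 (−1.44 to −1.16). The level of 247 lay below the 423 CPM of microglia-like nuclei in the same library (310 to 564), so it was not set apart from background. Those microglia-like nuclei had a median of 1022.5 UMIs, against 4561 in the committed precursor-like nuclei. Whether their CPM is a fitting floor for deeper nuclei was not tested. Nrxn3 was the only one of the 9 genes past 2-fold in these 3 classes among those with 100 UMIs in the pair (7, 5 and 7 of the 9 in the order given). Of all genes compared, 4.74% were 2-fold lower in cluster-5-like, 1.74% in proliferating-like and 1.88% in committed oligodendrocyte precursor-like nuclei.

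In NPC/OPC-like nuclei Nrxn3 was at 3038 CPM in control, 1790.3 with CBP ablated and 3151 with p300 ablated, a log2 ratio of −0.76 with CBP ablated (−0.83 to −0.70) and 0.05 with p300 ablated (0.02 to 0.09). Neuron-like nuclei, with the highest level, were at 14994, 14217 and 16281 CPM, and their ratio with CBP ablated was −0.08 (−0.13 to −0.02). RGC/PSC-like nuclei had ratios of −0.58 (−0.66 to −0.49) with CBP ablated and −0.18 (−0.24 to −0.11) with p300 ablated, and glial progenitor-like nuclei −0.48 (−0.56 to −0.41) and −0.11 (−0.18 to −0.05). In all, the interval lay below 0 in 8 of 10 classes with CBP ablated, the exceptions being oligodendrocyte-like and microglia-like nuclei, and above 0 in 8 and below 0 in 2 of 11 classes with p300 ablated. The oligodendrocyte-like ratios are of CPM levels below the microglia-like ones of the same library, and the microglia-like ratios are of that floor itself.

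The difference was also seen in how many nuclei had a Nrxn3 UMI after thinning. In cluster-5-like nuclei the share was 90.9% of 408 in control (87.7 to 93.5), 48.3% of 290 with CBP ablated (42.4 to 54.2) and 94.02% of 518 with p300 ablated (91.6 to 95.9). In neuron-like nuclei the shares were 100% of 91, 97.6% of 168 and 97.6% of 83 nuclei, and in control microglia-like nuclei 21.2% of 66 (12.1 to 33.0). Without thinning the cluster-5-like shares were 95.9%, 63.7% and 97.9%.

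The cluster-5-like class was not the same mixture in every library. At a finer resolution, chosen after seeing the data, it split into nuclei led by Kcnj6 (242 control, 21 CBP-ablated and 472 p300-ablated) and nuclei led by Gpr149, an orphan receptor gene (167, 270 and 43). Within the Kcnj6-led nuclei Nrxn3 was at 4298 CPM in control, 3560 with CBP ablated (3160 to 3997) and 4361 with p300 ablated, a log2 ratio of −0.27 with CBP ablated (−0.45 to −0.10) from 21 nuclei. Within the Gpr149-led nuclei it was at 2741, 731 and 1836 CPM, a ratio of −1.91 (−2.04 to −1.77) with CBP ablated and −0.58 (−0.78 to −0.38) with p300 ablated. The NPC/OPC-like class also changed its makeup, with 172 of 386 CBP-ablated nuclei and 143 of 1035 control nuclei in the Gpr149-led cluster. This is the same finer cluster that held the Gpr149-led cluster-5-like nuclei. The coarser clustering, which had Nrxn3 among its variable genes, divided it between the 2 classes. In its NPC/OPC-like part Nrxn3 was at 1981 CPM in control and 1225 with CBP ablated. Nrxn3 was at 3122 and 2057 in the Tmem255b-led cluster, and in the Gm2164-led cluster at 3054 (2940 to 3171) and 2823 (2570 to 3094), which overlapped. Committed precursor-like nuclei were lower in both finer clusters, at 608 and 307 CPM and at 391 and 155, with both CBP-ablated levels below the microglia-like 423.

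**Figure D4:**
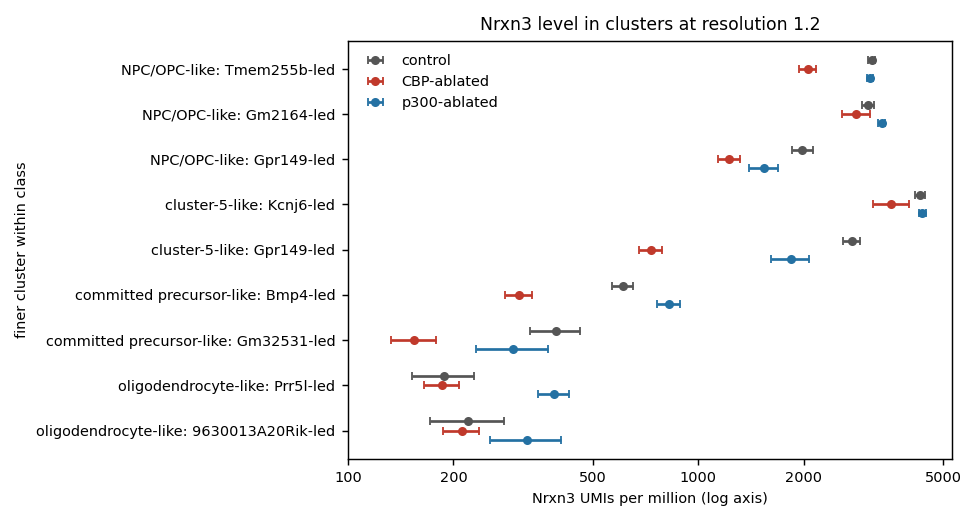
Nrxn3 level (CPM, log axis) in finer clusters within 4 classes, named by their leading gene, for the 3 libraries, with exact Poisson 95% intervals. The CBP-ablated library lies furthest below control in Gpr149-led cluster-5-like nuclei (731 against 2741) and overlaps control in both oligodendrocyte-like clusters and the Gm2164-led cluster.

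Nrxn2 moved more evenly over the classes with CBP ablated. In NPC/OPC-like nuclei it was at 462 CPM in control, 375 with CBP ablated and 574 with p300 ablated, log2 ratios of −0.30 (−0.45 to −0.16) and 0.31 (0.23 to 0.40). In committed oligodendrocyte precursor-like nuclei it was at 181.5, 132 and 249 CPM, ratios of −0.46 (−0.68 to −0.24) and 0.46 (0.22 to 0.69). The CBP-ablated library was lowest and the p300-ablated library highest in both classes. This order held in the Tmem255b-led, Gm2164-led and Bmp4-led finer clusters but not in the rest. The CBP-ablated interval overlapped control in the Tmem255b-led cluster, and both ablated intervals overlapped control in the Gm2164-led cluster. In control, CBP-ablated and p300-ablated nuclei Nrxn2 was at 402, 351 and 373 CPM in the Gpr149-led NPC/OPC-like cluster. In committed precursor-like nuclei led by Gm32531 it was at 63.4, 76.9 and 118. Intervals overlapped in both clusters. With CBP ablated the ratio was below 0 in 9 of 10 classes, with the interval below 0 in 8 of them, from −0.91 in cluster 7 to 0.15 in microglia-like nuclei. With p300 ablated it was above 0 in 11 of 11 classes, with the interval above 0 in 5 of them. The highest was 1.22 in microglia-like nuclei, at 58.0 CPM in control and 135 with p300 ablated. In both ablated libraries Nrxn2 lay below the microglia-like level in RGC/PSC-like nuclei. It overlapped that level in glial progenitor-like and oligodendrocyte-like nuclei and cluster 7 in both, and in committed precursor-like nuclei with CBP ablated. Within the cluster-5-like class its ratio with CBP ablated was −0.72 in Gpr149-led nuclei (−1.01 to −0.42) and 0.03 in the 21 Kcnj6-led nuclei (−0.52 to 0.54).

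**Figure D5:**
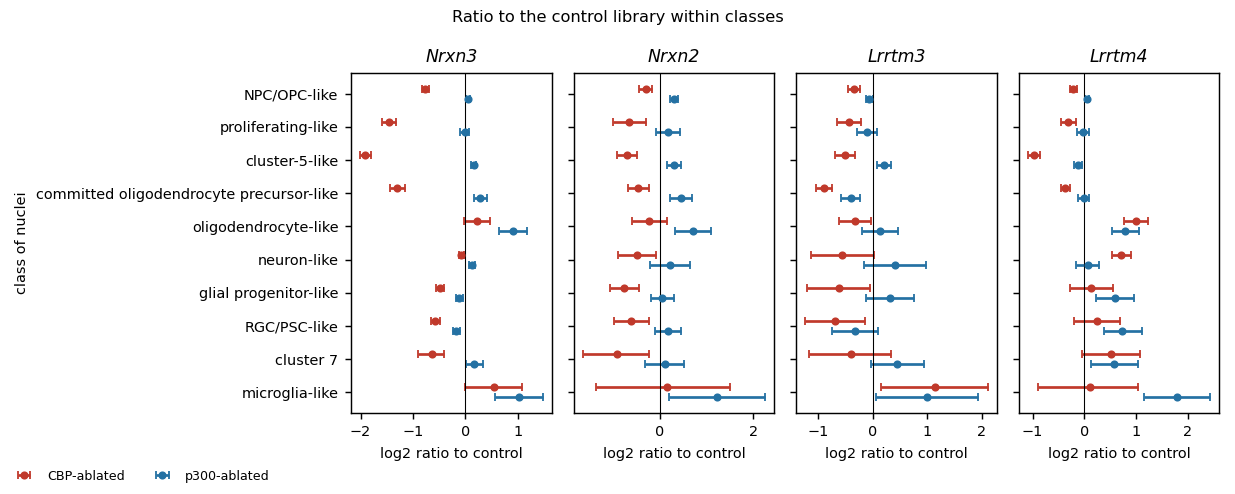
Log2 ratio to control of Nrxn3, Nrxn2, Lrrtm3 and Lrrtm4 within classes of nuclei, with CBP ablated (red) and p300 ablated (blue) and conditional binomial 95% intervals. Nrxn3 with CBP ablated reaches −1.91 in cluster-5-like nuclei and stays near 0 in neuron-like nuclei, and Lrrtm4 is above 0 in oligodendrocyte-like nuclei in both.

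In NPC/OPC-like nuclei, where 8 of the 9 genes had 100 UMIs in the pair, none was 2-fold different from control. Nrxn3 with CBP ablated passed 2-fold there under 2 other ways of forming the class, at −1.15 with coarser clusters and −1.12 with the class of the highest marker score. Of all genes compared there, 0.426% were 2-fold higher and 0.958% lower with CBP ablated, and 0.306% higher and 0.344% lower with p300 ablated. Lrrtm3 was at 832 CPM in control, 655 with CBP ablated and 794 with p300 ablated, log2 ratios of −0.34 (−0.45 to −0.24) and −0.07 (−0.13 to −0.00). With CBP ablated its interval was below 0 in 7 of 10 classes, of which RGC/PSC-like and glial progenitor-like nuclei had levels below the microglia-like ones. The CBP-ablated levels of oligodendrocyte-like nuclei (123 CPM) and neuron-like nuclei (103 CPM) also lay below the microglia-like 165 (98.1 to 262). The lowest ratio was −0.89 (−1.04 to −0.74), in committed oligodendrocyte precursor-like nuclei, from 479 CPM in control and 259 with CBP ablated. The interval of the latter overlapped that of microglia-like nuclei. In committed oligodendrocyte precursor-like nuclei Lrrtm3 was also lower with p300 ablated, at 363 CPM and a ratio of −0.40 (−0.58 to −0.23).

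Lrrtm4 differed in direction between classes. In cluster-5-like nuclei it was at 1626 CPM in control, 827.5 with CBP ablated and 1493 with p300 ablated, a log2 ratio of −0.97 with CBP ablated (−1.09 to −0.86), where the change of mixture given for Nrxn3 applies (−0.44 in Kcnj6-led and −0.96 in Gpr149-led nuclei). With p300 ablated the ratio was −0.12 in the class, −0.08 in Kcnj6-led and −0.98 in the 43 Gpr149-led nuclei. In NPC/OPC-like nuclei it was at 2011, 1734 and 2085 CPM, a ratio of −0.21 with CBP ablated (−0.28 to −0.15). In each finer cluster of that class the CBP-ablated level of Lrrtm4 was lower than control with overlapping intervals. The levels in control and with CBP ablated were 2256 and 2155 CPM (Tmem255b-led), 1700 and 1566 (Gm2164-led) and 1412 and 1338 (Gpr149-led). In oligodendrocyte-like nuclei Lrrtm4 was at 211 CPM in control, 421 with CBP ablated and 365 with p300 ablated, ratios of 1.00 (0.77 to 1.23) and 0.79 (0.54 to 1.05). The p300-ablated level was below the 412 CPM of microglia-like nuclei in that library, and the other 2 were above theirs of 119 and 129. In neuron-like nuclei it was at 992.5, 1628 and 1037 CPM, a ratio of 0.71 with CBP ablated (0.53 to 0.90). With CBP ablated the interval was below 0 in 4 classes, committed oligodendrocyte precursor-like and proliferating-like nuclei included, and above 0 in the other 2 named here. The makeup of the committed precursor-like class also differed, with 226 of 610 CBP-ablated and 77 of 393 control nuclei in its finer cluster led by Gm32531. There Lrrtm4 was at 132 CPM in control (98.1 to 174) and 175 with CBP ablated (152 to 200). In the Bmp4-led cluster it was at 1322 (1260 to 1387) and 1283 (1229 to 1339), so the intervals overlapped in both.

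The oligodendrocyte-like UMIs of Lrrtm4 came from few nuclei. The 10% of nuclei with the most UMIs held 69.7% of them in control, 69.3% with CBP ablated and 69.1% with p300 ablated, against 53.5% to 55.2% in neuron-like and 29.9% to 30.7% in NPC/OPC-like nuclei. After thinning, a Lrrtm4 UMI was found in 18.9% of 159 oligodendrocyte-like nuclei in control, 23.3% of 486 with CBP ablated and 24.5% of 192 with p300 ablated, and these intervals overlapped (32.5%, 44.9% and 45.6% without thinning). In control microglia-like nuclei the thinned share was 9.09% of 66. The makeup of the class differed here too. In its finer cluster led by Prr5l Lrrtm4 was at 110 CPM in control, 304 with CBP ablated and 355 with p300 ablated, and in the other at 378, 562 and 408. The Prr5l-led control level (83.6 to 142) lay below the microglia-like 119, and both p300-ablated levels lay below the microglia-like 412. In the other cluster the p300-ablated level, from 36 nuclei, overlapped control (329 to 500 and 313 to 452).

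Among the neuroligins, the within-class differences of Nlgn1 were small. In NPC/OPC-like nuclei Nlgn1 was at 6761 CPM in control, 6078 with CBP ablated and 6557 with p300 ablated, log2 ratios of −0.15 (−0.19 to −0.12) and −0.04 (−0.07 to −0.02). Over the other classes its ratio lay between −0.18 and 0.38 in both comparisons, apart from microglia-like nuclei (0.87 and 0.74). Nlgn2 was at 78.8, 80.1 and 80.0 CPM in NPC/OPC-like nuclei, and its higher level in cluster-5-like nuclei with CBP ablated (0.71, 0.22 to 1.21) and p300 ablated (0.64, 0.21 to 1.08) was the only one with an interval above 0. The change of mixture applies there too. With CBP ablated the Nlgn2 ratio was 0.19 in Kcnj6-led nuclei (−1.75 to 1.66) and 0.54 in Gpr149-led nuclei (−0.12 to 1.23). With p300 ablated it was 0.77 (0.26 to 1.32) and 0.39 (−0.82 to 1.48) in the same order. Nlgn3 was at 84.9, 98.4 and 94.01 CPM in NPC/OPC-like nuclei and had 1 interval above 0, in oligodendrocyte-like nuclei with CBP ablated (1.13, 0.22 to 2.18) from 95 UMIs, where the control level was below and the CBP-ablated level overlapped that of microglia-like nuclei.

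Lrrtm1 had no class whose interval excluded 0 in either comparison, with 5 classes given. Lrrtm2 in NPC/OPC-like nuclei had 33 UMIs in control and 4 with CBP ablated, a log2 ratio of −1.71 (−3.67 to −0.22), and in committed oligodendrocyte precursor-like nuclei the ratio was −0.99 (−1.84 to −0.15) from 52 UMIs. These levels lay below or overlapped the microglia-like ones.

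Other genes of the system, from lists by function, were compared over the libraries. None of the 11 measured neurexin ligands and receptors outside these families was 2-fold different from control, with a median log2 ratio of −0.28 with CBP ablated and 0.25 with p300 ablated. With CBP ablated the lowest were Igsf21 (−0.64), which binds neurexins at inhibitory synapses, and Nxph1 (−0.59), a secreted neurexin ligand, and the highest Clstn3 (0.22) and the glypican gene Gpc4 (0.49). With p300 ablated the lowest were the latrophilin gene Adgrl2 (−0.64) and Dag1 (−0.19), which encodes dystroglycan, and the highest Igsf21 (0.68) and Clstn3 (0.84, 0.41 to 1.29). The 12 neuroligin inhibitors and postsynaptic scaffolds had medians of −0.15 and 0.17. With CBP ablated Mdga2, a binding inhibitor of neuroligins, was at −0.67 and Dlg4 (PSD-95) at −0.42, while Dlgap2 was at 0.41 and Dlg1 at 0.72. With p300 ablated Dlg4 was at −0.14, Mdga2 at −0.06, Dlg2 at 0.84 and Dlgap2 at 0.99.

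Among 5 measured presynaptic scaffolds that bind neurexins the medians were −0.09 and 0.20. With CBP ablated Lin7a was at −0.59, Apba2 at −0.33, Apba1 at 0.26 and Cask at 0.31, and with p300 ablated Lin7c was at −0.18, Cask at 0.05, Apba1 at 0.25 and Lin7a at 0.64. The neurexin splicing regulators Khdrbs1, Khdrbs2 and Khdrbs3 had medians of 0.04 and 0.28, and the host genes Ctnna1, Ctnna2 and Ctnna3 of 0.45 and 0.39. With CBP ablated all 3 host genes were above control (0.16 to 0.50), the opposite direction to Lrrtm3. Of 19 other synaptic organizers with CBP ablated, 2 were 2-fold higher and 3 lower, beside 2.89% and 3.99% of all genes. The higher were Tenm2 (1.14) and Il1rapl2 (1.10), and the lower were Lrrc4c (−1.22), a netrin-G ligand, Slitrk2 (−1.03) and Slitrk1 (−1.01). With p300 ablated 0 of 20 were past 2-fold, and the extremes were Flrt2 (−0.73), Il1rapl2 (−0.37), Slitrk4 (0.57) and Tenm1 (0.90).

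The genes with the most similar pattern were ranked by Pearson's r of log2(CPM + 1) over 33 sums of a class in a library, among 8521 genes, as a description, since the sums share libraries and depth. Lrrtm3 was most like Dscam (0.98), Csmd3 (0.96) and Lhfpl3 (0.95), and Lrrtm4 like Sorcs3 (0.95), Rims1 (0.95) and Pcdh15 (0.94). Nlgn1 was most like Gphn (0.92), which encodes the inhibitory scaffold gephyrin, Dlgap1 and Pknox2 (both 0.91). Nrxn3 was most like Myt1l (0.92), a neuronal transcription factor gene, Ptprn2 and Asic2 (both 0.91), and Nrxn2 like Elfn1 (0.89), Lrrc4c (0.89) and Klf12 (0.88). Nlgn2 was most like Reep1 (0.91), Top2b and Il17d (both 0.89), Nlgn3 like P2ry14 (0.90), Map7d2 (0.90) and Susd4 (0.89), Lrrtm1 like Ppfia3 (0.91), Gpr45 and Tub (both 0.88), and Lrrtm2 like Chn2 (0.87), Lrrc8d (0.84) and Cmip (0.83). Dscam, Lhfpl3 and Pcdh15 were among the markers that named NPC/OPC-like nuclei.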

How the data were processed

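Per the labels and the methods of the study, nuclei were profiled with the 10x Genomics 3′ kit. The authors used FastQC 0.11.9 and Cell Ranger 3.1 (GRCm38, introns and exons) and name Seurat 2.3.4, and deposited raw UMI counts per gene and nucleus, which are whole numbers without normalization. All nuclei were kept. Nuclei were clustered here with Seurat 5.3.0 in R 4.3.3 (1000 most dispersed genes per library, 20 components, 30 neighbours, resolution 0.6, seed 1). Clusters took the name of a class when 60% of its markers, and at least 3, had a UMI in 10% of nuclei and 2 times the level elsewhere. Of the 9 genes, 4 (Lrrtm3, Lrrtm4, Nlgn1 and Nrxn3) were among the variable genes. Doublets were called with Scrublet in Scanpy 1.11.5 (191, 73 and 173 nuclei, kept), and 176 of the 190 nuclei of cluster 12 were called.

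Counts were summed per library, or per class with at least 50 nuclei, as CPM (UMIs scaled to a fixed total), with exact Poisson intervals, conditional binomial intervals for ratios and Clopper-Pearson intervals for shares, all at 95%. PCR duplicates are removed by UMIs, and the intervals leave out variation between cultures. Ratios needed 100 UMIs in a library pair and 20 in a class pair. With 1 library per group there was no test. Counts of 0 allow up to 3 UMIs, or 0.184, 0.235 and 0.159 CPM in the 3 libraries. Thinning to 1500 UMIs left 4636, 2922 and 4513 nuclei. The ratio intervals were run on simulated Poisson counts, the model that they assume. The simulation held no variation between nuclei or cultures, so it cannot show how the intervals hold for these data. Python 3.11.15, numpy 2.4.6, scipy 1.17.1, pandas 2.3.3, matplotlib 3.10.9 and edgeR 4.0.16 (for TMM factors) were used.

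The genes, lists and class markers were chosen with earlier results of these data known. For each list the 2 highest and 2 lowest library ratios were named, and for each gene the 3 most similar genes, with other genes past 2-fold and leading genes of finer clusters named after their values were seen. A gene that is not reported here was left out of lists and rankings.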

Additional observations from a re-analysis of the deposited data

Results flagged for a closer look

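Both ablated libraries were compared with the same control library, and the results below lay on opposite sides of 0 in the 2 comparisons, each with a counting interval that left out 0. The difference between the comparisons was not tested, since each condition is 1 library. Over whole libraries the log2 ratios with CBP ablated and with p300 ablated were −0.76 and 0.52 for Nrxn2, −0.63 and 0.37 for Lrrtm3, −0.60 and 0.29 for Nrxn3, −0.32 and 0.21 for Nlgn1, and −0.23 and 0.52 for Lrrtm4. In NPC/OPC-like nuclei they were −0.76 and 0.05 for Nrxn3, −0.30 and 0.31 for Nrxn2, and −0.21 and 0.05 for Lrrtm4. In the Gpr149-led cluster of that class the p300-ablated level was below control for each. It was 1538 against 1981 CPM for Nrxn3 and, with overlapping intervals, 373 against 402 for Nrxn2 and 1216 against 1412 for Lrrtm4. In the Tmem255b-led cluster Nrxn3 was at 3096 against 3122, which overlapped. Other p300-ablated levels in the Tmem255b-led and Gm2164-led clusters lay above control. Of these, Lrrtm4 in both clusters and Nrxn2 in the Gm2164-led cluster had intervals that overlapped control. The CBP-ablated level of Lrrtm4 overlapped control in each cluster. In cluster-5-like nuclei the ratios were −1.91 and 0.16 for Nrxn3, −0.70 and 0.31 for Nrxn2, and −0.50 and 0.20 for Lrrtm3. That class was another mixture in each library, and the opposite signs of the neurexins did not hold in both of its parts. In its Gpr149-led nuclei Nrxn3 was at −1.91 and −0.58, and in Kcnj6-led nuclei, 21 of them CBP-ablated, Nrxn2 was at 0.03 and 0.25. Lrrtm3 was at −0.57 and 0.12 in the Kcnj6-led and at −0.25 and 0.14 in the Gpr149-led nuclei. Among these Lrrtm3 ratios, only −0.57 (−1.14 to −0.04) had an interval that left out 0. In committed oligodendrocyte precursor-like nuclei the ratios were −1.30 and 0.29 for Nrxn3, −0.46 and 0.46 for Nrxn2, and −0.13 and 0.07 for Nlgn1. The CBP-ablated level of Nrxn3 there lay below the microglia-like level of that library, and that of Nrxn2 overlapped it. In the finer cluster of that class led by Gm32531, Nrxn2 was above control in both ablated libraries, with overlapping intervals. Nrxn3 was at −0.64 and 0.17 in cluster 7, and at −0.08 and 0.12 in neuron-like nuclei.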

How the results depend on the processing

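With 1 library per condition, spread between cultures is unknown and no library can be left out. No paired analysis was possible because each group has 1 library. The median log2 ratio of the 9 genes with CBP ablated, −0.23, was −0.45 without the astrocyte-like nuclei, −0.11 with nuclei weighted equally, −0.29 after centring on the median of all genes and −0.30 with edgeR TMM factors. With p300 ablated the median of 0.37 was 0.13 without the astrocyte-like nuclei. At 1.5-fold in place of 2-fold, 3 genes were called with CBP ablated. The share of all genes past 1.5-fold was not computed, so this count has nothing to be set against. The direction turned for Nlgn2 with CBP ablated without the astrocyte-like nuclei (−0.028), where Nlgn3 went from 0.10 to −0.11 and Lrrtm2 with p300 ablated from 0.09 to −0.22, both from ratios whose intervals held 0. It turned for Lrrtm3 with p300 ablated in NPC/OPC-like nuclei at resolution 0.3 (0.011), and in cluster-5-like nuclei for Nrxn2 with CBP ablated in the Kcnj6-led part (0.034) and for Nrxn3 with p300 ablated in the Gpr149-led part (−0.58). The cause was not tested. Nrxn3 in NPC/OPC-like nuclei with CBP ablated ranged from −1.15 at resolution 0.3 and −1.12 with the class of the highest marker score, both past 2-fold, to −0.50 at resolution 1.2. Each comparison had 63 alternative library ratios, of which 44 with CBP ablated and 46 with p300 ablated stayed within the counting interval of the reported value. In each, 9 of these came from subtracting 10% free RNA with the profile of the library. That leaves a library ratio unchanged by construction, so those 9 could not move. Of 531 alternative levels of a gene in a class, 459 stayed within the counting interval of the reported level and 72 did not. With the class of the highest marker score, 40 of 90 levels moved outside it. The splits of cluster-5-like nuclei, the finer composition and the subtraction of free RNA within classes were chosen after seeing the data.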
